A study of Homo sapiens with 24 samples.

Results

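The genes described here are 10 established targets of the transcription factor p53: ZMAT3, TNFRSF10B, AEN, CDKN1A, MDM2, GDF15, FAS, BBC3, SESN1 and TP53INP1. Their rows were found by gene symbol in the platform annotation of the deposited expression table, with no threshold on a measured value, but the list of symbols was drawn up with earlier results of these data known. Together they held 16 of the 37900 rows, which came to 13 separate measurements because some rows repeated the same values. Of the 10 genes, 7 lay above background often enough to be tested, among 10215 genes tested in all. CDKN1A, FAS and MDM2 were too dim for a test.

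H1 is an established line of human embryonic stem cells. All cells had been grown without feeder cells on Matrigel in mTeSR medium, seeded as single cells at high density and grown to confluency. For neural induction the medium was then changed to DMEM/F12 with knockout serum replacement and dorsomorphin, also called compound C, a small molecule that inhibits BMP type I receptors and AMP-activated protein kinase. RNA was taken at 0, 12, 24, 36, 48 and 72 h and hybridised to HumanHT-12 v4 bead arrays of Illumina, 4 for each time and 24 in all. All groups share the cell line, and the 0 h cells were the start of the same induction. No cells kept in mTeSR or without the compound were among the samples at the later times, so the effects of time, confluency, medium and compound cannot be told apart.

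p53 is a DNA-binding transcription factor that is kept low by the ubiquitin ligase MDM2 and accumulates after DNA damage and other stresses. Its targets act in arrest of the cell cycle, in cell death through death receptors or mitochondria, in metabolism and in the control of p53 itself. Human embryonic stem cells are known for a high readiness to die after DNA damage and for a weak induction of the p21 protein encoded by CDKN1A.

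The p53 protein binds pairs of a decamer. The p53 consensus decamer was searched, as a single copy, in RefSeq promoter windows of GRCh38.p14 that run from 250 bases before to 50 bases after each transcript start, on both strands, which are equivalent for this palindrome, and no other motif was searched. The promoter table held 16 windows of 8 of the 10 genes, and 3 windows, 1 each of AEN, FAS and SESN1, held a match. Over the genome 6.63% of 35116 such windows held one. The 2 stretches below belong to genes that changed in the course, AEN and SESN1, and the capitals mark the decamer. The AEN stretch is chr15:88621090-88621339 on the plus strand, the 250 bases before the start, and its match begins 34 bases before the start. The SESN1 stretch is chr6:109009018-109009047 on the minus strand, taken from 1 of its 3 windows, and its match begins 49 bases before that start.
AEN: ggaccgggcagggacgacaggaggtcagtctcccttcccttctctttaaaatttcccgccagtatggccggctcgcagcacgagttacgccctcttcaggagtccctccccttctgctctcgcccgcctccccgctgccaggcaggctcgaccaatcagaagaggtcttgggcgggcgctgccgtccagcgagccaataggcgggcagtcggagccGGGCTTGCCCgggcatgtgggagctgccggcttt
SESN1: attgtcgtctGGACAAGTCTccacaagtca
The windows of ZMAT3, CDKN1A, MDM2, GDF15 and BBC3 held no match, which says only that these letters are not in these windows. A match is a stretch of letters and was not tested for binding.

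The deposited values were log2 signals between 5.57 and 15.51, and arrays of the same time correlated at 0.986 to 0.993 over all measurements. A log2 signal of 7.10 was taken as background. The labelled cell state was checked against its markers. POU5F1, the pluripotency factor OCT4, was at 12.36 ± 0.09 (SD, n = 4) at 0 h and at 10.55 ± 0.29 at 72 h, while PAX6, a transcription factor of the neural plate, went from 6.72 ± 0.32 with 1 of 4 arrays above background to 9.85 ± 0.55. NANOG, another pluripotency factor, was at least 3.63-fold lower at 72 h than at 0 h, and SOX1, an early neural gene, was above background on 0 of 24 arrays. TBXT and SOX17, which define mesoderm and endoderm, were above background on 0 of 24 arrays, and 7 of the 9 measured markers of those lineages were never above it. COL1A1, a fibroblast collagen, was above background on 24 arrays. Of the 10 fibroblast markers 4 were above background often enough to be tested, and 4, COL3A1, DCN, LUM and POSTN, were never above it. PDGFRA and TWIST1 were above it on 2 arrays each. One array of each time (replicate 2 at 0, 24 and 72 h, replicate 4 at 12, 36 and 48 h) deviated from the others of its time in a shared way, with CLEC2A at 7.17 to 7.56 on these 6 arrays and 9.10 to 10.71 on the other 18. Whether replicates were separate cultures was not given, so the p-values measure the spread between arrays, which may be technical, and the 4 arrays per time limit the precision. In bulk RNA, fewer cells of a type and less RNA per cell cannot be told apart.

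Between 0 h and 12 h, 5 of the 7 measurable p53 targets fell, or 4 of 6 without GDF15. GDF15 entered the test through 8 arrays above background, 4 of them at 0 h, so its fall was built into its selection. ZMAT3 fell 2.03-fold, TNFRSF10B 1.69-fold, AEN 1.59-fold and SESN1 1.47-fold, and GDF15 fell to a 12 h level that was above background on 1 of 4 arrays. TP53INP1 and BBC3 did not pass the test. Among all genes tested, 3.32% were called lower and 2.76% higher in this comparison. All tests were limma moderated tests with a mean for each time, and the adjusted p-values run over all genes tested. Each comparison with 0 h shares the same 4 arrays of 0 h.

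ZMAT3 encodes a zinc finger protein that binds RNA and regulates splicing and RNA stability. At 0 h its log2 signals on replicates 1 to 4 were 10.17, 9.54, 9.21 and 10.05. At 12 h they were 8.73, 8.92, 8.46 and 8.78. Every 12 h array lay below every 0 h array, and the difference was -1.02 ± 0.16 (SE, adjusted p = 3.8e-04). The values at 24 h were 9.30, 9.21, 9.47 and 9.47, above all of 12 h. The 36 h signals were 8.77, 8.53, 9.22 and 8.72, those of 48 h 9.36, 9.14, 9.13 and 8.99, and those of 72 h 9.15, 9.06, 9.07 and 9.19. In their means the 12 h and 36 h groups were the lowest, 0 h was the highest, and the late groups lay between them. At 36 h ZMAT3 was lower than at 0 h by -0.93 (adjusted p = 1.9e-04), with replicate 3 of 36 h at 9.22 just above the lowest of 0 h. The difference from 0 h was -0.59 (adjusted p = 0.00953) for 48 h and -0.62 (adjusted p = 0.0034) for 72 h, and for 24 h the difference of -0.38 did not pass (adjusted p = 0.163). With any single array left out ZMAT3 was still called at 12, 36 and 72 h, and at 48 h it was not called without replicate 1 of 0 h (adjusted p = 0.0531).

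The platform held another measurement of ZMAT3 with different values. Its time means from 0 h to 72 h were 9.59, 8.64, 9.09, 8.79, 9.05 and 9.01. It gave -0.94 ± 0.16 for 12 h against 0 h (adjusted p = 7.5e-04) and -0.80 for 36 h (adjusted p = 0.00102), so both measurements were called lower than 0 h at these times. Its differences of 0.45 for 24 h against 12 h (adjusted p = 0.0872) and of -0.30 for 36 h against 24 h (adjusted p = 0.21) did not pass.

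Of the genes of cell death, TNFRSF10B encodes a death receptor for the ligand TRAIL. Its 0 h signals were 11.19, 10.92, 10.90 and 11.16, and its 12 h signals were 10.24, 10.12, 10.54 and 10.22. The groups did not overlap, and the difference was -0.76 ± 0.12 (adjusted p = 3.0e-04). At 24 h the arrays gave 10.74, 10.85, 10.75 and 10.54, all below all of 0 h, but the difference of -0.32 did not pass (adjusted p = 0.1). At 36 h they gave 10.38, 10.22, 10.52 and 10.76. The 36 h arrays again lay below all of 0 h, by -0.57 (adjusted p = 0.00115). At 48 h the signals were 10.83, 10.58, 10.86 and 11.07 and at 72 h 10.91, 10.82, 10.84 and 10.92. These late groups reached into the 0 h range, with differences of -0.20 (adjusted p = 0.237) and -0.17 (adjusted p = 0.283). The calls at 12 h and 36 h held with any single array left out. A dimmer measurement of TNFRSF10B, above background on 17 arrays, gave -0.38 ± 0.10 at 12 h (adjusted p = 0.0209) and -0.32 at 36 h (adjusted p = 0.0237). It was also called lower than 0 h at 24 h, at -0.33 (adjusted p = 0.0383). The remaining measurement was never above background.

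AEN encodes a nuclease that promotes apoptosis. Its signals were 11.19, 10.95, 10.80 and 11.26 at 0 h and 10.27, 10.40, 10.36 and 10.48 at 12 h. No 12 h array reached the lowest of 0 h, and the difference was -0.67 ± 0.11 (adjusted p = 3.8e-04). AEN was the member called lower at every later time, and at 24 h it was the only member called with the brightest measurement of each gene. Its 24 h signals were 10.75, 10.63, 10.56 and 10.77. Those of 36 h were 10.49, 10.36, 10.54 and 10.59, and those of 48 h were 10.65, 10.65, 10.38 and 10.61. All of these lay below all of 0 h, by -0.37 (adjusted p = 0.0308), -0.55 (adjusted p = 5.8e-04) and -0.47 (adjusted p = 0.00192). At 72 h the arrays gave 10.39, 10.82, 10.47 and 10.68, of which 1 lay within the 0 h range, with a difference of -0.46 (adjusted p = 0.00134). With single arrays left out AEN was called throughout at 12, 36, 48 and 72 h. Its call at 24 h was lost without replicate 1 (adjusted p = 0.0911) or 4 (adjusted p = 0.104) of 0 h and without replicate 2 (adjusted p = 0.0614) or 3 (adjusted p = 0.0931) of 24 h. Without the 6 arrays that deviated alike, AEN was not called at 24 h (adjusted p = 0.0604) and TNFRSF10B was, at -0.40 (adjusted p = 0.0491).

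FAS encodes the receptor of the FAS ligand, and its signals of 6.47 to 7.06 were above background on 0 of 24 arrays. BBC3 encodes PUMA, a BH3-only protein that acts at mitochondria, and it had no called change in any of the 9 comparisons. Its time means ran from 7.80 ± 0.11 at 72 h to 8.03 ± 0.16 at 24 h. The 12 h signals of BBC3 were 7.87, 7.87, 7.90 and 7.68 against 7.92, 7.73, 7.78 and 7.94 at 0 h, a difference of -0.01 ± 0.10 (adjusted p = 0.972). TP53INP1 encodes a nuclear stress protein with roles in apoptosis and autophagy. Its 0 h signals were 8.34, 8.26, 7.59 and 8.41. Those of 12 h were 7.90, 7.48, 7.78 and 7.77, and those of 24 h were 8.25, 8.55, 8.44 and 8.49. The low replicate 3 of 0 h overlapped the 12 h group, and the difference of -0.42 ± 0.14 did not pass (adjusted p = 0.0785). Without replicate 3 of 0 h it was -0.61 and passed (adjusted p = 0.00191). At 36 h TP53INP1 was at 8.05, 7.88, 8.07 and 8.38, at 48 h at 8.37, 8.66, 8.33 and 8.45, and at 72 h at 8.36, 8.55, 8.27 and 8.30. None of its differences from 0 h passed the test, and the largest at a later time was 0.30 at 48 h (adjusted p = 0.134).

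**Figure D1:**
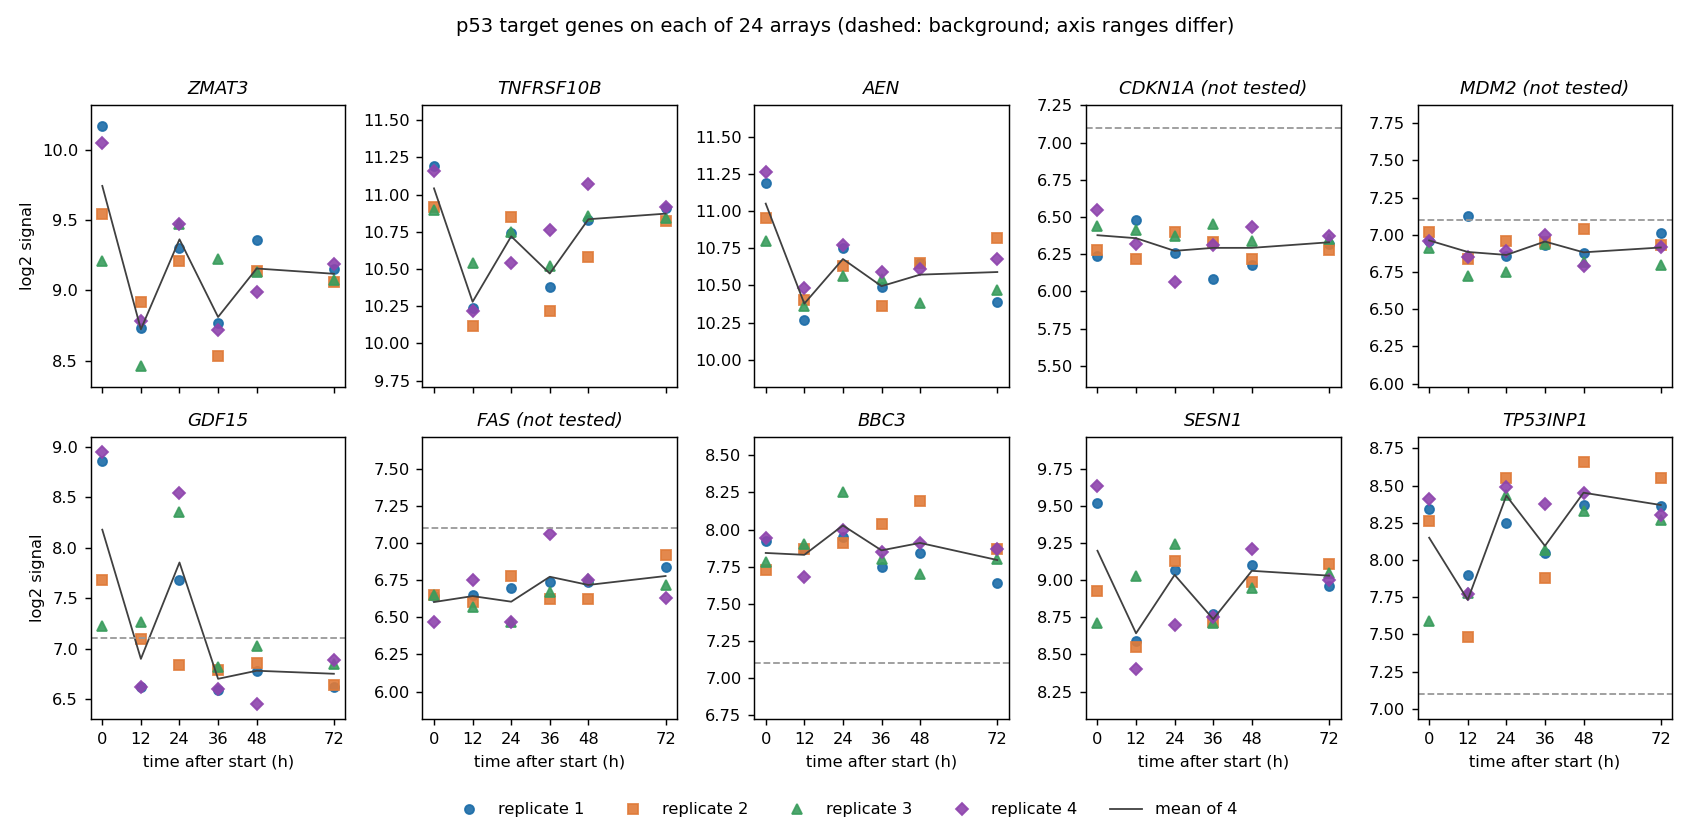
Log2 signal of the p53 target genes on each array (points) against hours of induction, with time means as a line and background at 7.10 where it falls in a panel's range. ZMAT3, TNFRSF10B, AEN and SESN1 were lowest at 12 h and second lowest at 36 h in their mean, GDF15 was below background from 36 h on, and CDKN1A, MDM2 and FAS lay below background on every array but 1 of MDM2.

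GDF15 and SESN1 are the stress and metabolic members. GDF15 encodes a secreted cytokine of the TGF-beta superfamily that is raised by many stresses. Its 0 h signals were spread widely, at 8.86, 7.68, 7.22 and 8.95, and the 12 h signals were 6.62, 7.09, 7.26 and 6.62. Only replicate 3 of 12 h was above background. The groups overlapped at the low end of 0 h, and the difference was -1.28 ± 0.31 (adjusted p = 0.013). It did not pass without replicate 1 (adjusted p = 0.0728) or 4 (adjusted p = 0.076) of 0 h. At 24 h GDF15 was again spread, with 7.68, 6.84, 8.35 and 8.54. From 36 h on it was below background on every array. The signals of 36 h were 6.59, 6.79, 6.82 and 6.60, those of 48 h were 6.78, 6.86, 7.03 and 6.45, and those of 72 h were 6.62, 6.64, 6.85 and 6.89. Taken against background, GDF15 was at least 2.11-fold lower than at 0 h at 36 h (adjusted p = 0.0014), 48 h (adjusted p = 0.00167) and 72 h (adjusted p = 7.0e-04). GDF15 entered the test through 8 arrays above background, 4 of them at 0 h and 3 at 24 h, so a difference from the low times was built into its selection, and its calls add nothing to the counts of members as support. Without GDF15 the counts of tested members called lower than 0 h were 4 of 6 at 12 h and 36 h, 1 of 6 at 24 h, and 2 of 6 at 48 h and 72 h.

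SESN1 encodes a sestrin, a stress protein that restrains mTORC1. Its signals were 9.52, 8.93, 8.71 and 9.63 at 0 h and 8.59, 8.55, 9.03 and 8.40 at 12 h. The groups overlapped in their middle, and the difference was -0.55 ± 0.16 (adjusted p = 0.0343). The arrays gave 9.07, 9.13, 9.24 and 8.70 at 24 h and 8.77, 8.72, 8.71 and 8.75 at 36 h. The 36 h arrays were almost equal to each other and lay at the low end of 0 h, with a difference of -0.46 (adjusted p = 0.0442). At 48 h SESN1 was at 9.10, 8.99, 8.95 and 9.21, and at 72 h at 8.96, 9.11, 9.05 and 9.0. Neither late time passed the test against 0 h (adjusted p = 0.602 and 0.436). Both SESN1 calls were near the threshold. The 12 h call was lost without replicate 1 (adjusted p = 0.153) or 4 (adjusted p = 0.167) of 0 h, or replicate 1 (adjusted p = 0.0867), 2 (adjusted p = 0.0826) or 4 (adjusted p = 0.123) of 12 h. The 36 h call was lost without replicate 1 (adjusted p = 0.177) or 4 (adjusted p = 0.205) of 0 h or any array of 36 h (adjusted p = 0.0785 to 0.0808).

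The signals of the members of arrest and of feedback on p53 were below the reach of the arrays. The platform held no other measurement of CDKN1A, MDM2 or FAS. A scarce transcript and a measurement that responds poorly therefore cannot be told apart. CDKN1A encodes p21, an inhibitor of cyclin-dependent kinases, and its signals of 6.06 to 6.55 were above background on 0 of 24 arrays. MDM2 was at 6.72 to 7.13, with 1 of 24 arrays, replicate 1 of 12 h, above background. Without the filter the differences for 12 h against 0 h were -0.02 for CDKN1A (adjusted p = 0.967), -0.08 for MDM2 (adjusted p = 0.734) and 0.04 for FAS (adjusted p = 0.914), and at this brightness a fall or a small rise in the transcript would not be detectable. BIK, a BH3-only gene of the BCL2 family at 6.44 at 0 h, was called higher at 36 h with a mean of 7.57 (adjusted p = 7.5e-05). BIK entered the test only through arrays of 24 h and later, where it was high. Whether the measurements of CDKN1A, MDM2 and FAS would respond to a rise was not tested.

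Across the later times the number of members called lower than 0 h went up and down. At 24 h it was 1 of 7, against 3.24% of all genes called lower. At 36 h it was 5 of 7, or 4 of 6 without GDF15, against 9.07%. It was 3 of 7 for both 48 h and 72 h, namely ZMAT3, AEN and GDF15, or 2 of 6 without GDF15, against 10.5% and 17.4%. No member was called higher than 0 h at any time, where 2.76%, 3.97%, 7.96%, 10.7% and 18.5% of all genes were, in the order of the times. In the order of the times, the median log2 difference of the 7 tested members from 0 h was -0.67, -0.32, -0.55, -0.20 and -0.17. Without GDF15 these medians were -0.61, -0.24, -0.51, -0.17 and -0.17. The median over all genes tested stayed between -0.00 and 0.02. Groups that did not overlap were counted as well, and at 12 h 3 members lay wholly below 0 h, against 4.11% of all genes. In the moderated F test over the course 6 of 7 members, GDF15 among them, varied with time, all but BBC3 (adjusted p = 0.391), against 48.9% of all genes. TNFRSF10B had the largest F at 11.5 (adjusted p = 6.7e-05), followed by ZMAT3 at 10.9 (adjusted p = 1.0e-04).

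**Figure D2:**
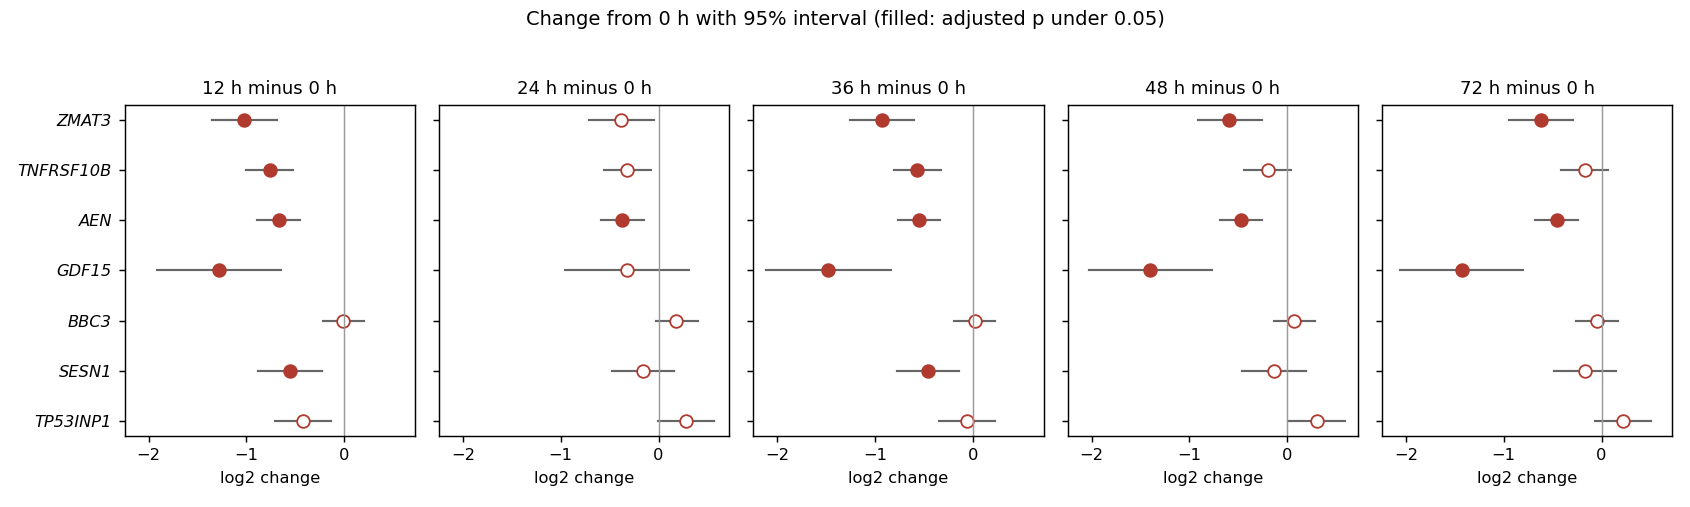
Log2 difference of each tested p53 target from 0 h at each later time, with the 95% interval as a bar and filled points for adjusted p under the threshold. ZMAT3, TNFRSF10B, AEN, GDF15 and SESN1 are filled at 12 h and 36 h, AEN alone at 24 h, and ZMAT3, AEN and GDF15 at 48 h and 72 h.

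The size of the changes rested in part on the arrays of 0 h. On replicates 1 and 4 of 0 h, all 7 tested members lay above their 0 h mean, by 0.29 and 0.31 on average, and on replicate 3, 0 of 7 did, with a mean deviation of -0.43. On replicate 2 it was 1 of 7, with a mean of -0.17. At the other times the mean deviations lay between -0.14 and 0.14, so this mean varied more between the arrays of 0 h than later. It includes GDF15, which ran from 7.22 to 8.95 at 0 h and was below background on every array from 36 h on. The mean without GDF15 was not taken. With replicates 1 and 4 of 0 h left out, 3 members were still called lower at 12 h: ZMAT3 at -0.65 (adjusted p = 0.0425), TNFRSF10B at -0.63 (adjusted p = 0.0299) and AEN at -0.50 (adjusted p = 0.0442). GDF15 at -0.55 (adjusted p = 0.553) and SESN1 at -0.18 (adjusted p = 0.787) were no longer called. In that setting no member was called at 24 h, where 356 of all 10215 genes were called lower and 350 higher. At 36 h 1 member was called, ZMAT3 at -0.56 (adjusted p = 0.0285), where 364 of all genes were called lower. At 48 h and 72 h the single call was TP53INP1, which was higher than 0 h by 0.53 (adjusted p = 0.0262) and 0.44 (adjusted p = 0.0402). At these times 772 and 1392 of all genes were called higher. With replicates 2 and 3 left out instead, ZMAT3 was at -1.39 and GDF15 at -2.01 at 12 h. Over all genes tested, 339 were called lower at 12 h with every array, 47 without replicates 1 and 4 of 0 h, and 605 without replicates 2 and 3. What set the 0 h arrays apart was not tested. Without the 6 arrays that deviated alike, ZMAT3 was at -1.11, TNFRSF10B at -0.78 and AEN at -0.74 at 12 h, all called, GDF15 was called at -1.35 (adjusted p = 0.0111), and SESN1 was not called at -0.56 (adjusted p = 0.0822).

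**Figure D3:**
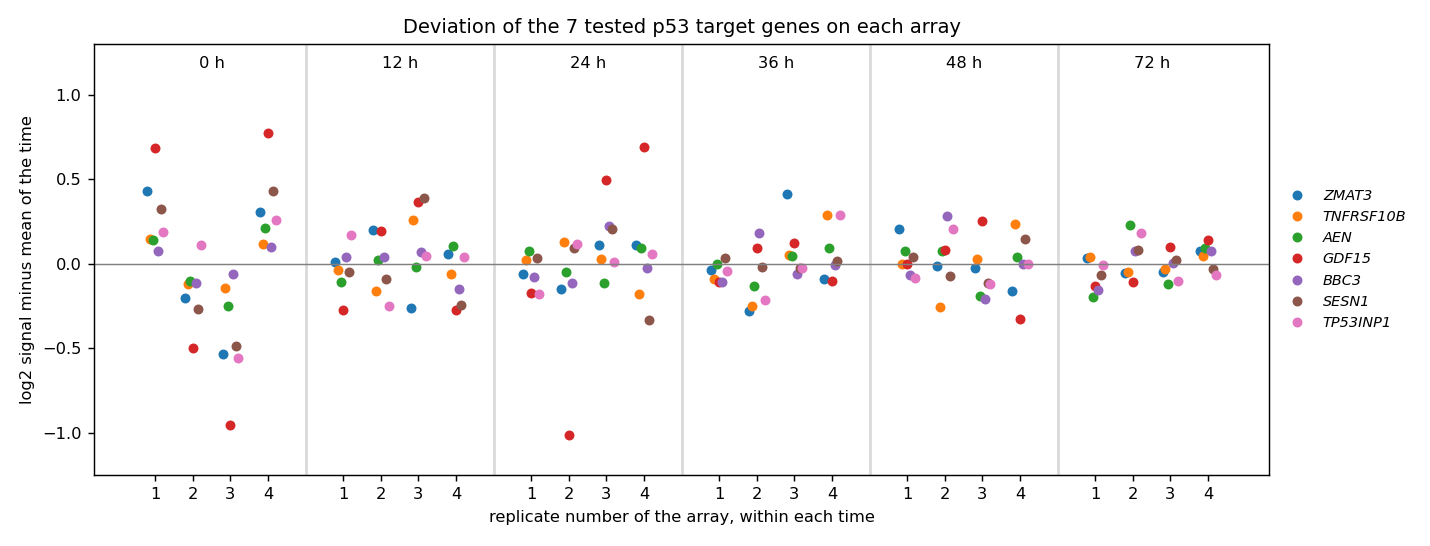
Deviation of each tested p53 target from its own time mean on each array, on the log2 scale. At 0 h all 7 genes lie above zero on replicates 1 and 4 and all lie below on replicate 3. At the later times the mean over the genes, GDF15 included, stays between -0.14 and 0.14.

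The differences between neighbouring times after 12 h do not use the 0 h arrays, which still enter the estimate of spread behind their p-values. Between 12 h and 24 h, 3 members rose: TP53INP1 by 0.70 ± 0.14 (adjusted p = 0.00659), ZMAT3 by 0.64 ± 0.16 (adjusted p = 0.0202) and TNFRSF10B by 0.44 ± 0.12 (adjusted p = 0.0275). Among all genes 3.32% were called higher. For TP53INP1 and ZMAT3 every array of 24 h lay above every array of 12 h, and for TNFRSF10B the groups met at 10.54. All 7 differences were above zero with a median of 0.44, or 0.41 over the 6 without GDF15, and for 4 members the groups did not overlap, against 5.48% of all genes. The other 4 differences did not pass the test, namely AEN at 0.30 (adjusted p = 0.0843), GDF15 at 0.96 (adjusted p = 0.0581), BBC3 at 0.20 (adjusted p = 0.255) and SESN1 at 0.39 (adjusted p = 0.126). The other measurements of ZMAT3 and TNFRSF10B did not pass here, at 0.45 (adjusted p = 0.0872) and 0.04 (adjusted p = 0.836). TP53INP1 was called with any single array of the compared times left out. TNFRSF10B was not called without replicate 1 (adjusted p = 0.0673), 2 (adjusted p = 0.103) or 4 (adjusted p = 0.0716) of 12 h, or replicate 1 (adjusted p = 0.0639) or 3 (adjusted p = 0.059) of 24 h. ZMAT3 was not without replicate 3 (adjusted p = 0.0516) or 4 (adjusted p = 0.0663) of 24 h. Without the 6 arrays that deviated alike, TNFRSF10B was not called (adjusted p = 0.0687) and GDF15 was (adjusted p = 0.0241).

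Between 24 h and 36 h, ZMAT3 fell by 0.55 (adjusted p = 0.0238). GDF15, above background on 3 of 4 arrays of 24 h and on none of 36 h, was at least 1.69-fold lower (adjusted p = 0.0159). These are 2 of 7 tested members, and 1 of 6 without GDF15, against 7.46% of all genes called lower. The other 5 differences were also below zero, from -0.33 for TP53INP1 (adjusted p = 0.109) to -0.17 for BBC3 (adjusted p = 0.29), and did not pass. GDF15 was not called without replicate 3 (adjusted p = 0.0609) or 4 (adjusted p = 0.0863) of 24 h. ZMAT3 was not called without replicate 3 (adjusted p = 0.0662) or 4 (adjusted p = 0.0853) of 24 h, or replicate 1 (adjusted p = 0.0634), 2 (adjusted p = 0.0778) or 4 (adjusted p = 0.0598) of 36 h. Between 36 h and 48 h GDF15 was below background on every array. The differences of the other 6 tested members were above zero with a median of 0.34, but 0 passed the adjusted threshold, against 2.90% of all genes called higher. The largest were TNFRSF10B at 0.37 (adjusted p = 0.0617), TP53INP1 at 0.36 (adjusted p = 0.131), ZMAT3 at 0.35 (adjusted p = 0.205) and SESN1 at 0.32 (adjusted p = 0.225). Limma with array weights called TNFRSF10B (adjusted p = 0.0139) and TP53INP1 (adjusted p = 0.0339), and the share of all genes called in that setting is not given here. TNFRSF10B also passed without replicate 4 of 36 h (adjusted p = 0.022) or replicate 2 of 48 h (adjusted p = 0.0366). In these 2 settings 305 and 212 of all 10215 genes were called higher. Between 48 h and 72 h 0 members were called by limma at the adjusted threshold, and the differences lay between -0.11 and 0.04. Among all genes 3.51% were called lower and 2.69% higher there. Leaving GDF15 aside, the differences of the other 6 tested members had 1 sign within each of the first 4 intervals, down, up, down and up. The calls behind them numbered 4, 3, 1 and 0. Some differences were near zero, with BBC3 at -0.01 for 12 h against 0 h, and AEN at 0.08 and BBC3 at 0.05 for 48 h against 36 h. Under some alternatives these changed sign. The share of all genes with this order of signs was not counted. The signs are those of the brightest measurements, and the dimmer one of TNFRSF10B was at 0.01 for 36 h against 24 h (adjusted p = 0.962). Neighbouring intervals share the arrays of the time between them, so these signs are not independent of each other.

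**Figure D4:**
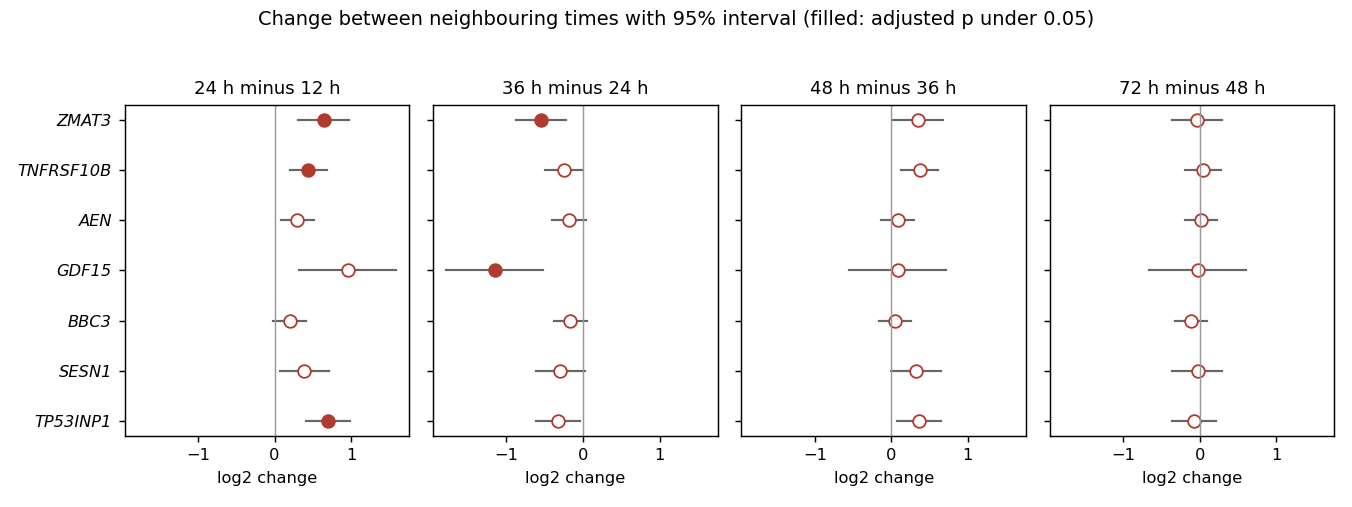
Log2 difference of each tested p53 target between neighbouring times, with the 95% interval as a bar and filled points for adjusted p under the threshold. Leaving out GDF15, which was below background at 36, 48 and 72 h, all points lie above zero for 24 h against 12 h and for 48 h against 36 h, and below zero for 36 h against 24 h.

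The genes most like the leading members in their course were found by the root mean square difference of the 6 time means, each taken from the gene's own average, among all genes tested. For TNFRSF10B they were IVNS1ABP at 0.0511, DDB2 at 0.0735 and ZFP36L1 at 0.0753. DDB2, a DNA damage recognition protein of nucleotide excision repair, is itself a p53 target. For ZMAT3 they were ARRB1 at 0.0704, IGSF21 at 0.0924 and EVI5L at 0.108. Among the members, SESN1 came nearest to TNFRSF10B at 0.0763, followed by AEN at 0.145 and ZMAT3 at 0.169, and GDF15 was farthest at 0.516. The distances are on the log2 scale and rest on 6 points for each gene.

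A further list of 40 p53 targets was looked up, of which 37 were measured and 30 tested. This list too was chosen with earlier results of these data known. Its comparisons with 0 h use the same 4 arrays of 0 h, so its counts are not independent of those of the members. Over all genes 339 were called lower at 12 h with every array and 47 without replicates 1 and 4 of 0 h, and no such result is given for this list. At 12 h 5 of the 30 were called lower than 0 h and 0 higher, against 3.32% and 2.76% of all genes. Of the 30 differences 26 were below zero, against 4863 of 10215 over all genes, and the median of the 30 was -0.25. CMBL, a hydrolase, fell by 0.97 ± 0.18 (adjusted p = 0.00195), DDB2 by 0.58 ± 0.14 (adjusted p = 0.013), RRM2B, a ribonucleotide reductase subunit, by 0.56 ± 0.16 (adjusted p = 0.03) and XPC, another repair protein, by 0.52 ± 0.14 (adjusted p = 0.0229). The remaining one, named after its value was seen, was the TRAIL receptor TNFRSF10A, which fell by 0.34 ± 0.10 (adjusted p = 0.0431). At 72 h the list had 13 called lower and 6 higher, where 17.4% and 18.5% of all genes were. PMAIP1, the BH3-only protein NOXA, fell by 2.16 ± 0.27 (adjusted p = 6.7e-07) at 72 h, although its mean had been 10.02 at 0 h, 10.04 at 12 h and 10.81 at 24 h. RRM2B fell by 1.32 ± 0.16 (adjusted p = 3.7e-07), TNFRSF10A was at least 1.71-fold lower and below background on all 4 arrays of 72 h (adjusted p = 2.3e-09), and PERP, a membrane protein of cell adhesion and apoptosis, rose by 0.84 ± 0.15 (adjusted p = 7.2e-05). From 12 h to 24 h 1 of 30 rose and 1 fell, with a median of 0.07, where 339 of all 10215 genes rose and 332 fell. From 24 h to 36 h 3 rose and 5 fell, with a median of -0.10, where 705 of all 10215 genes rose and 762 fell.

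Of 20 regulators of p53, 18 were measured and 13 tested. MDM4, a relative of MDM2 that restrains p53, was at -0.32 ± 0.10 at 12 h (adjusted p = 0.05, above the threshold before rounding) and fell by 0.38 at 24 h (adjusted p = 0.0158) and by 0.25 ± 0.10 at 72 h (adjusted p = 0.047). SIRT1, a deacetylase that acts on p53, was the 1 regulator called at 12 h, where it rose by 0.58 ± 0.12 (adjusted p = 0.00405). At 72 h 2 of the 13 regulators had fallen and 4 had risen, where 17.4% and 18.5% of all genes had. Those that rose included the kinase gene TP53RK by 0.67 ± 0.14 (adjusted p = 3.6e-04) and the acetyltransferase gene CREBBP by 0.60 ± 0.14 (adjusted p = 0.00147). The regulators thus had a median of 0.04 at 12 h and 0.03 at 72 h. That of the 7 tested members was -0.67 and -0.17, or -0.61 and -0.17 without GDF15.

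**Figure D5:**
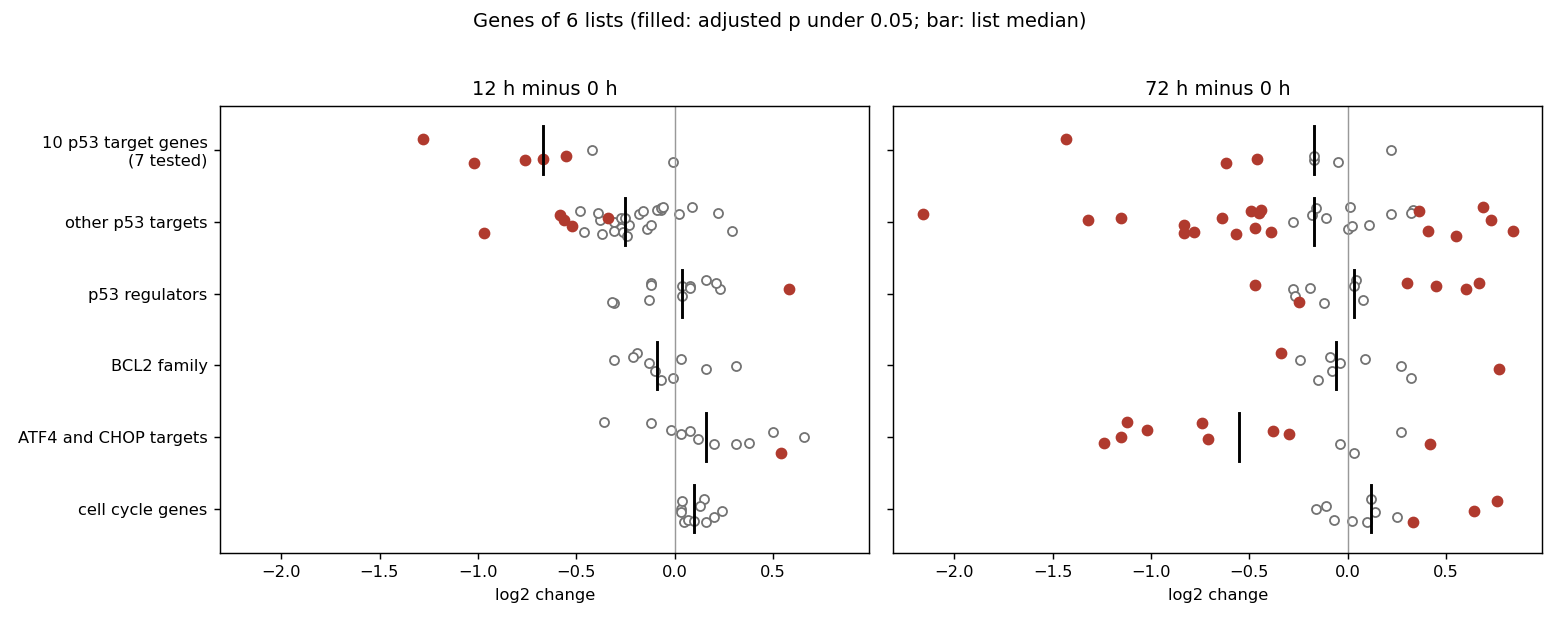
Log2 difference from 0 h of every tested gene of each list at 12 h and 72 h (points), with the list median as a bar. At 12 h all 7 tested p53 targets and 26 of the 30 further targets lie below zero, while the medians of the regulators and the cell cycle genes lie above it.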

How the data were processed

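Expression in H1 cells was profiled on HumanHT-12 v4 arrays, 4 for each of 6 times. The authors deposited log2 values for 24 arrays. How they were scanned, background-corrected and normalized is not given in the sources used here. A further table of 24 intensity and 24 detection p columns was not used, because its column names match no sample label. Symbols came from the platform annotation, which gave 1 symbol to 26221 of 37900 rows, several to 7 and none to 11672. Rows with the same values on all arrays (10159 rows in 4746 sets) were counted once. Background was the 99th percentile of 387 olfactory receptor measurements, 7.10, and a gene was tested when above it on at least 4 arrays. For a gene with several measurements the brightest was used.

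A mean per time was fitted with lmFit and eBayes of limma 3.58.1 (R 4.3.3), with 18 residual degrees of freedom. Two-sided p-values were adjusted by Benjamini-Hochberg over 10215 genes in each comparison, with a threshold of 0.05. For a time with no array above background, the fold was taken against background and written as "at least". Alternatives changed the filter, the measurement, the normalization, the spread estimate, the block and the arrays used.

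The members and all gene lists were chosen with earlier results of these data known. All 10 members were named. Of the further targets, up to 4 called genes with the largest change at 12 h and at 72 h were named, of the regulators MDM4 and up to 3 more, of the cell cycle, ATF4 and CHOP, and BCL2 lists up to 3 each, and of the marker lists 7 preset genes. Lists of pluripotency, neural plate, mesoderm and endoderm, fibroblast, and trophoblast and amnion markers served as checks.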

Additional observations from a re-analysis of the deposited data

Results flagged for a closer look

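Within each time the highest and lowest of the 4 arrays were compared with the rest for each of the 10 p53 targets, 60 groups in all, and 4 groups held an array set apart from the others by Dixon's criterion. Chance flags about 1 in 20 groups. AEN had a low array at 48 h, at 10.38, with a gap of 0.84 of the group's range. BBC3 had one at 12 h, at 7.68, with a gap of 0.878. FAS had one at 0 h, at 6.47 (gap 0.91), and one at 48 h, at 6.62 (gap 0.831), both below background.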

How the results depend on the processing

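The numbers of p53 targets called were 5, 1, 5, 3 and 3 for 12, 24, 36, 48 and 72 h against 0 h, 3, 2, 0 and 0 for the 4 later intervals, and 6 in the F test. GDF15 is included wherever it was called. Requiring 20 arrays above background gave 1 for 36 h against 24 h. The mean of all measurements gave 2 for 24 h against 0 h and 1 for 36 h against 24 h. Array weights gave 5 for 24 h against 12 h and 2 for 48 h against 36 h. Fitting only the 8 arrays compared gave 3 at 12 h, 0 at 24 h and 1 for 48 h against 36 h. Replicates 1 and 2 alone gave 3 at 12 h, 0 at 24 h, 1 at 48 h and 0 for 24 h against 12 h and for 36 h against 24 h. Replicates 3 and 4 alone gave 0 for each later time against 0 h, 0 for 24 h against 12 h, 1 for 36 h against 24 h and 1 in the F test. Leaving out replicates 1 and 4 of 0 h, a setting chosen after the data were seen, gave 3, 0, 1, 1 and 1 against 0 h, and leaving out replicates 2 and 3 gave 4 at 24 h. Leaving out single arrays gave 3 to 6 at 12 h, 0 to 2 at 24 h, 1 to 5 for 24 h against 12 h, 0 to 2 for 36 h against 24 h and 0 to 1 for 48 h against 36 h. Apart from fewer arrays in the fit, the cause of these shifts was not tested.

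The labels do not say that a replicate number marks a shared culture or day, and 29 of 60 same-numbered pairs of arrays correlated above 0.1, so the numbers were not taken to pair the samples. The median correlation was 0.08 for the same number and -0.08 for other numbers, and 14 of 24 arrays correlated best with their own number, a hint of pairing from the data. The replicate number as a block gave 1 for 48 h against 36 h and moved no other count by over 1.5 times. Without the 6 arrays that deviated alike, no count moved by over 1.5 times, although the genes called changed at 24 h. No called change reversed under any of these alternatives. Quantile normalization and median centring, which shifted arrays by at most 0.012, left every count as it was. Signals near background limit CDKN1A, MDM2, FAS and GDF15.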

Other observations

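Other processes linked to p53 were counted beside all genes tested, of which 3.32% were called lower and 2.76% higher at 12 h, and 17.4% and 18.5% at 72 h. Of 12 genes that p21 is known to repress through the cell cycle, 11 were tested, and at 12 h 0 were called while 11 of 11 differences were above zero with a median of 0.10. At 72 h 3 had risen: CENPF, a centromere protein, by 0.76 ± 0.12 (adjusted p = 2.1e-05), and the mitotic cyclins CCNB2 by 0.64 ± 0.13 (adjusted p = 3.6e-04) and CCNB1 by 0.33 ± 0.13 (adjusted p = 0.0417). Of the BCL2 family, 10 of 12 were tested and 0 were called at 12 h. At 72 h BAK1, a pore-forming death effector, fell by 0.34 ± 0.12 (adjusted p = 0.0234), and BIK, a BH3-only gene, was at least 1.08-fold higher with 2 of 4 arrays above background (adjusted p = 0.00151). Targets of ATF4 and CHOP, factors of the amino acid and unfolded protein stress responses, had 1 of 12 tested genes called higher at 12 h. At 72 h 8 were lower and 1 higher, with VLDLR at -1.24 ± 0.32 (adjusted p = 0.0037), the asparagine synthetase ASNS at -1.15 ± 0.20 (adjusted p = 8.5e-05) and the pseudokinase TRIB3 at -1.12 ± 0.12 (adjusted p = 9.5e-08).

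SIRT1 was higher than at 0 h by 0.98 ± 0.12 at 24 h (adjusted p = 1.2e-05) and by 0.54 at 36 h (adjusted p = 0.00255), and at 72 h it stood at -0.28 (adjusted p = 0.0697). PMAIP1 fell by 1.38 between 24 h and 36 h (adjusted p = 0.00231) and by 1.15 between 48 h and 72 h (adjusted p = 0.008). Of the marker lists, 5 of 9 pluripotency genes were lower and 2 higher at 72 h, and 7 of 9 neural plate genes were higher. At 12 h 1 pluripotency gene was lower and 2 neural plate genes were higher. Of 4 tested fibroblast markers 1 was lower and 1 higher at 12 h, and 1 was lower at 72 h. COL1A1 was higher than at 0 h by 0.93 at 36 h (adjusted p = 0.00769), and at 72 h it stood at -0.19 (adjusted p = 0.584). Of 3 tested trophoblast and amnion markers 0 were called at 12 h and 1 was lower at 72 h, and 7 of the 10 were never above background. IGFBP3, 1 of these 3, was higher than at 0 h by 2.38 at 36 h (adjusted p = 3.9e-05) and by 2.14 at 48 h (adjusted p = 9.4e-05). At 72 h it stood at 0.82 (adjusted p = 0.0748).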
